A study of Mus musculus with 21 samples.

Results

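Smooth muscle genes are the 10 genes Acta2, Actg2, Myh11, Tagln, Cnn1, Des, Myocd, Smtn, Mylk and Lmod1, chosen by symbol as the contractile, cytoskeletal and regulatory genes by which smooth muscle is usually recognised. All 10 were found once in each deposited table, among 42760 genes in the lung and Peril brain tables and 40770 genes in the linc-Brn1b table. They were followed in E14.5 lung with and without the long intergenic noncoding RNA (lincRNA) Fendrr, and then in 4 brain comparisons, where smooth muscle is found in vessel walls.

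Smooth muscle cells line the airways, the arteries and veins and the gut. Their contraction starts when calcium activates myosin light chain kinase, which phosphorylates the regulatory light chain of smooth muscle myosin and lets it pull on actin filaments. Serum response factor, together with its cofactor myocardin, drives most of these genes through a DNA element named the CArG box. In the developing lung, smooth muscle forms around the growing airways and vessels from the mesenchyme, under signals such as Shh from the epithelium.

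RNA was sequenced from whole tissue of mice in which a lincRNA gene had been replaced by a lacZ reporter cassette, and from wild-type mice, which the study calls littermates in every comparison but that at E15.5. The lung groups were linc-Foxf1a+/+ and linc-Foxf1a-/- embryos at E14.5 (Fendrr strain). The brain groups were linc-Sox2+/+ and linc-Sox2-/- brain at E18.5 (Peril strain), and linc-Brn1b+/+ and linc-Brn1b-/- telencephalon (E13.5, E15.5) or whole brain (P7). All strains came from hybrid 129S6SvEv and C57BL/6N embryonic stem cells and were backcrossed once to C57BL/6J, so that DNA of mixed strain origin is shared by all groups. The deleted allele also carries a neomycin resistance cassette. The labels list 21 libraries in 10 groups, with 2 per group except 3 for linc-Brn1b-/- at E15.5. Each table gives only 1 value per gene and group, in fragments per kilobase of transcript and per 1000000 mapped fragments (FPKM), a level per length. The spread between animals and the sequencing depth are therefore not known here. No test was run and the authors' own test columns were left aside, so the differences below are descriptions without replicate error.

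The deleted lincRNA was checked first. Of the 2 entries that cover Fendrr, linc-Cox4nb-4 had 38.4 FPKM in wild-type lung and 0.0450 FPKM in knockout lung, and linc-Foxf1a-1 had 0.352 and 0.0100 FPKM. The linc-Brn1b entry had 0.799 to 2.50 FPKM in the 3 wild-type groups and was listed at 0 in the 3 knockout groups. AK011913, the other entry over that locus, had 1.06 to 8.73 FPKM in the wild-type groups, against a highest knockout value of 0.0267 FPKM. The only entry over the Peril locus, linc-Atp11b-4, went against its label. It had 0.0109 FPKM in wild type against 4.65 FPKM in the group labelled knockout. The entry spans 21655 bases and covers 72.2% of the Peril locus, so it does not match that locus exactly. Where along its span the reads fell was not examined. By RT-PCR of E18.5 brain, the paper reports that Peril was deleted in its knockouts. Every Peril direction below follows the deposited label and the column order found in the linc-Brn1b table. Neither a wrong label nor a reversed column order was tested. The genes Uty, Kdm5d, Eif2s3y and Ddx3y, all on the Y chromosome, had 4.55 to 13.51 FPKM in wild-type lung and were listed at 0 in knockout lung. In brain, their sum was lower in knockout at E13.5 (49.2 against 0.0133 FPKM) and higher in the groups labelled knockout of the other 3 comparisons. Embryo sex and genotype therefore cannot be told apart in any of the 5 comparisons. The lung label fitted its epithelial markers, of which Sftpc, the surfactant protein C gene, had 819 FPKM in wild type against 871 FPKM in knockout.

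In E14.5 lung the smooth muscle genes spanned levels from 1.51 FPKM for Lmod1 to 250.2 FPKM for Acta2 in wild type, and most lay close to those levels in the Fendrr knockout. Myh11, the smooth muscle myosin heavy chain, was the exception, with 28.4 FPKM in wild type against 17.4 FPKM in knockout, which is 61.2% of wild type. Des, the muscle intermediate filament gene, lay highest relative to wild type, at 130.5%. Summed over the 10 genes, the level was 562.4 FPKM in wild type against 527.1 FPKM in knockout, or 93.7% of wild type. In such bulk tissue, fewer cells of a type and less RNA per cell cannot be told apart.

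**Figure D1:**
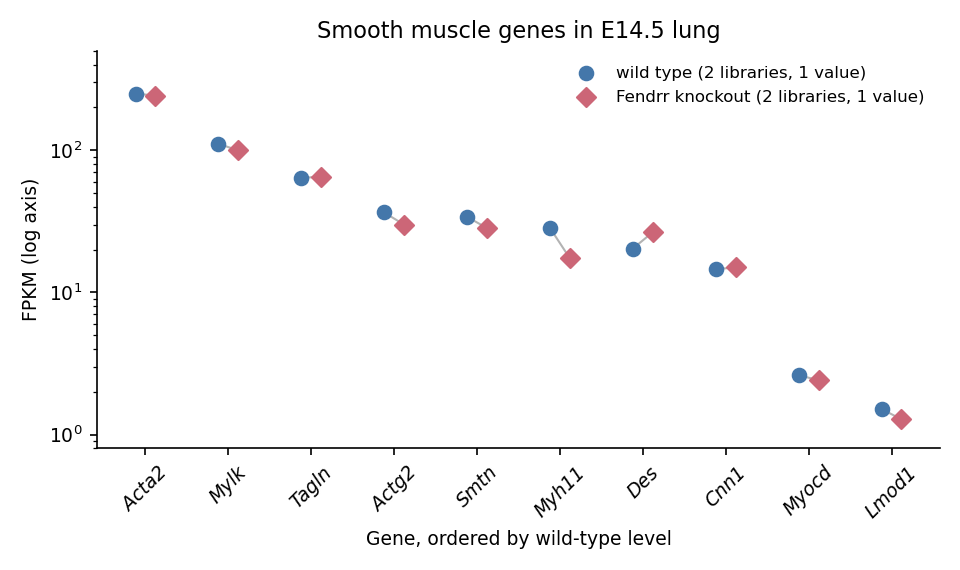
Level of each smooth muscle gene in E14.5 lung in FPKM on a log axis, with circles for wild type and diamonds for the Fendrr knockout, each the 1 deposited value of a group of 2 libraries. Acta2 is the highest and Lmod1 the lowest in both groups, and the widest gap is that of Myh11 (28.4 against 17.4 FPKM).

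The actins form the thin filaments that myosin pulls on. Acta2 encodes smooth muscle alpha-actin and lies on mm9 at chr19:34315580-34329826 on the minus strand, with 9 exonic regions. It had 250.2 FPKM in wild type against 241.6 FPKM in knockout. Actg2 encodes smooth muscle gamma-actin, best known from the gut, and lies at chr6:83462899-83486259 on the minus strand. Its level was 36.4 FPKM in wild type against 29.9 FPKM in knockout, 82.1% of wild type. The order of these actins was the same in both groups, with Acta2 several times above Actg2.

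Muscle actins are nearly identical proteins, and the heart and skeletal isotypes Actc1 and Acta1 were higher in knockout lung (described further on), so it matters whether reads tell them apart. The last 60 coding bases of each gene, stop codon included, show how the codons differ. They were read from the GENCODE transcripts of NCBIM37, the same build as mm9, and aligned without gaps from the stop codon. Capitals mark the bases at which a gene differs from Acta2, which is 11 of 60 for Actg2, 12 of 60 for Actc1 and 8 of 60 for Acta1.
Acta2: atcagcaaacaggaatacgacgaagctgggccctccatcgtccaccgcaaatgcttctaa
Actg2: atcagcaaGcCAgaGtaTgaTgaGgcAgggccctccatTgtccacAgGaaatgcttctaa
Actc1: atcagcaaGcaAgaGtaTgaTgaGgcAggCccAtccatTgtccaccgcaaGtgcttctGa
Acta1: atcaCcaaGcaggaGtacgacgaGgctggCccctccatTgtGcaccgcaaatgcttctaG
Over the whole coding sequence, Acta2 was identical to Actg2 at 83.8% of bases, to Actc1 at 82.5% and to Acta1 at 85.4%. The longest identical stretch with Acta2 was 29 bases for Actg2 and Acta1 and 23 bases for Actc1. No stretch as long as a read was shared between a coding transcript of any of the 10 genes and one of another gene.

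The upstream sequence of Acta2 was examined for the CArG box, since serum response factor acts through it. RefSeq promoter windows of 300 bases (build GRCm38.p6, 250 bases before the start site and 50 after) were matched for 6 of the 10 genes, Acta2, Cnn1, Des, Lmod1, Mylk and Smtn. The full CArG box, a form that reads the same on both strands, was in 0 of these 6 windows and in 1.63% of all 32851 windows. With 1 of the central letters other than A or T allowed, it was in 1 of the 6 windows and in 9.98% of all windows. That window was the one of Acta2, which held the box at the following places on the minus strand of chromosome 19, with the box in capitals. They start 84 and 34 bases before the start site.
Acta2 at chr19:34255438-34255467: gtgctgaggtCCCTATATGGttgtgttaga
Acta2 at chr19:34255388-34255417: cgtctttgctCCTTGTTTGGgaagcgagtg
These matches describe the letters of the reference only, and binding was not measured in these libraries.

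The thick filament of smooth muscle is built from Myh11, at chr16:14194620-14291501 on the minus strand with 42 exonic regions. On the log2(FPKM + 1) scale, which understates the change of low genes, Myh11 differed by -0.68 between knockout and wild type. It was the only one of the 10 genes past 1.5-fold (0.585 on this scale) in either direction. Of all 13979 genes with a mean of at least 1 FPKM over both groups, 0.808% were past 1.5-fold lower in knockout and 1.41% past 1.5-fold higher, so that 1 of 10 lower and 0 of 10 higher stand beside these shares. Only 0.587% of the genes had a difference as low as that of Myh11 or lower. Among the 7482 genes with a mean of at least 10 FPKM, it ranked number 35 from the lowest, and 38 were past 1.5-fold lower. With other pseudocounts and scalings, the difference of Myh11 stayed between -0.68 and -0.77.

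Related myosins were looked at beside it. The non-muscle heavy chains Myh9 and Myh10 had 86.5 and 112.6 FPKM in wild type and 72.0 and 123.9 FPKM in knockout. Myh14 had 8.24 FPKM in wild type against 6.14 FPKM in knockout. Myh11 thus made up 12.03% of the sum of these 4 heavy chains in wild type and 7.91% in knockout. The regulatory light chain Myl9, which partners with these heavy chains, was in the other direction, with 140.2 FPKM in wild type against 196.0 FPKM in knockout, a log2 difference of 0.48 that did not pass 1.5-fold. These myosin genes therefore had values on either side of wild type, and bulk tissue does not show whether their RNA came from the same cells.

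Mylk, the myosin light chain kinase gene at chr16:34745296-35002520 on the plus strand, had the second highest level of the 10 genes. It had 110.8 FPKM in wild type against 99.5 FPKM in knockout, a log2 difference of -0.15. The 21 other regulators of contraction included myosin phosphatase subunits, receptors and channels. Of the 17 with a mean of at least 1 FPKM, 0 were past 1.5-fold in either direction, and their median log2 difference was -0.06. Of the lung genes with that mean, 28 were listed at 0 in 1 group, among them the mitochondrial Cox2, mt-Nd4 and Cytb, which nearly every cell uses, so a listed 0 can be a failed estimate.

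The genes whose proteins bind actin were mixed. Tagln, which encodes transgelin and lies at chr9:45737711-45744141 on the minus strand, had 63.7 FPKM in wild type against 65.2 FPKM in knockout. The deposited lung entry of Tagln spans 97530 bases, a stretch that holds 5 other annotated genes, and their part in its value was not tested. Cnn1, which encodes calponin and lies at chr9:21903725-21914074 on the plus strand, had 14.5003 FPKM in wild type against 15.03 FPKM in knockout. The log2 differences of Tagln and Cnn1, 0.03 and 0.05, turned to -0.04 and -0.02 when values were rescaled to a common sum over genes above 0 in both groups. Smtn, the smoothelin gene at chr11:3417526-3440615 on the minus strand, was lower, with 34.0 FPKM in wild type against 28.3 FPKM in knockout. Lmod1, which encodes the filament nucleator leiomodin and lies at chr1:137221384-137264642 on the plus strand, had 1.51 and 1.28 FPKM, or 84.4% of wild type. Some of these values may hold reads of overlapping genes on the other strand, because the sources do not state that counting used strand. This concerned 16.3% of the exonic bases of Smtn, shared with the lincRNA Gm11946, 5.86% of those of Des, shared with Gm15179, and 4.10% of those of Tagln, shared with Pcsk7 (9.83 and 8.96 FPKM).

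Des and Myocd complete the set. Des, at chr1:75356904-75365154 on the plus strand, encodes the intermediate filament desmin of smooth, heart and skeletal muscle. Its 20.3 FPKM in wild type against 26.5 FPKM in knockout gave a log2 difference of 0.37, and 97.0% of all genes had a difference as low or lower. Myocd, at chr11:64990063-65083491 on the minus strand, encodes myocardin itself and was near the lower end of the levels, with 2.62 FPKM in wild type against 2.41 FPKM in knockout. Serum response factor (Srf) had 23.3 and 23.5 FPKM. Of the 10 cofactors and transcription factors of smooth muscle other than Myocd, 0 were past 1.5-fold in either direction, with a median of -0.02. Hopx was among the highest of them, with 23.8 and 21.4 FPKM, beside Gata6, with 20.2 and 24.4 FPKM. In whole lung tissue the activator genes thus lay close to wild type, as Acta2 did. Their level within smooth muscle cells was not measured.

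Over the 10 smooth muscle genes, 7 differences were below 0 and 3 above, with a median of -0.11. The median of all genes was 0.00, and 48.6% of all genes were below 0. Every gene of the set had a mean of at least 1 FPKM in lung, so none was left out. The lowest and the highest of the set were Myh11 and Des, and the other 8 lay between -0.28 and 0.05.

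**Figure D2:**
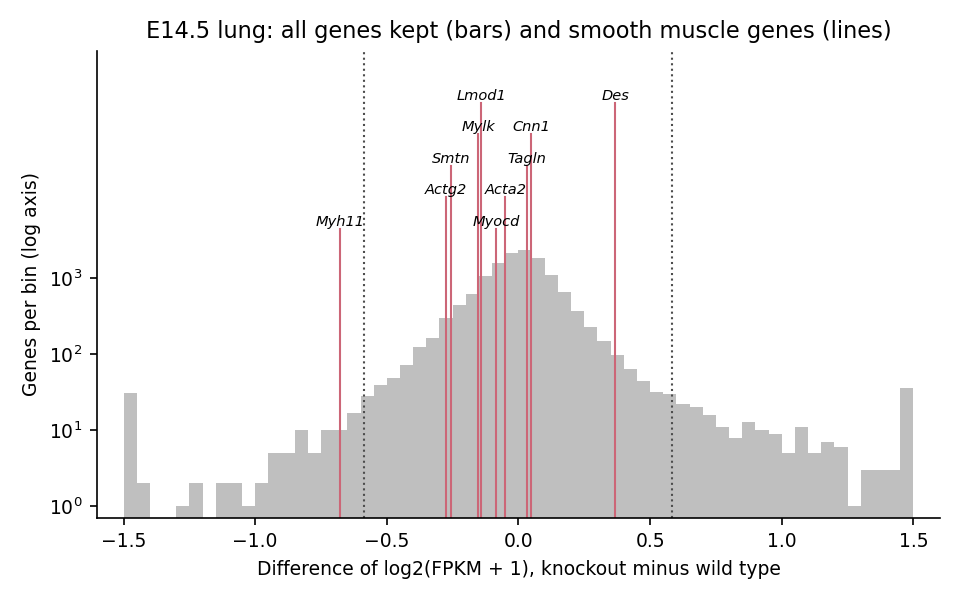
Difference of log2(FPKM + 1) between knockout and wild type in E14.5 lung for all 13979 genes kept (bars, genes per bin on a log axis, with genes beyond 1.5 in the outermost bins) and for the 10 smooth muscle genes (lines of arbitrary height). Dotted lines mark 1.5-fold, and Myh11 is the only line outside them.

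Heart muscle genes stood apart from the smooth muscle genes in the same lungs. Over all 13979 genes kept, 1.41% were past 1.5-fold higher in knockout and 0.808% lower. Of 18 cardiac muscle markers kept, 17 were past 1.5-fold higher in knockout and 0 lower, with a median log2 difference of 1.47. Their sum was 433.7 FPKM in wild type against 1323 FPKM in knockout. Nppa, the atrial natriuretic peptide gene, had 1.77 FPKM in wild type against 54.2 FPKM in knockout. Myl7, an atrial myosin light chain and the highest of the list, had 147.2 and 422.1 FPKM. The heart genes Myh6 (24.1 and 77.5 FPKM), Sln (7.49 and 30.3 FPKM) and Myl2 (0.884 and 8.16 FPKM) were higher as well. The 8 skeletal muscle markers kept were also all past 1.5-fold higher, with a median of 0.95. They were led by Ckm (4.91 and 15.6 FPKM), the muscle creatine kinase gene, and Myl1 (8.40 and 24.0 FPKM), a myosin light chain made in both skeletal and atrial muscle, followed by Acta1 and Tnnc2 (1.20 and 3.83 FPKM).

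Acta2, Tagln and Des are also known from embryonic heart muscle. The part of heart and skeletal muscle in the values of the smooth muscle genes was not tested. Among the muscle actins, Acta2 made up 68.1% of the sum in wild type and 48.7% in knockout. Actc1, the cardiac actin, had 77.2 and 215.4 FPKM and made up 21.03% and 43.4%. Actg2 went from 9.93% to 6.03%, and Acta1, the skeletal actin with 3.29 and 9.14 FPKM, from 0.896% to 1.84%. The cytoplasmic actins Actb (750.3 and 818.4 FPKM) and Actg1 (775.3 and 812.2 FPKM) exceeded all muscle actins in both groups. The change in the Acta2 share therefore came with a higher Actc1 level and a nearly equal Acta2 level.

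Other contractile and cytoskeletal genes that smooth muscle shares with other cells had no common direction. Of 22, all kept, 0 were past 1.5-fold in either direction, 11 were below 0 and 11 above, with a median of 0.00. The highest was Myl6, the essential myosin light chain gene, with 817.3 FPKM in wild type against 859.7 FPKM in knockout. Tpm1, a tropomyosin, had 309.3 and 386.2 FPKM, and Synpo2, a filament-bundling protein gene, had 3.17 and 2.32 FPKM. The log2 differences of the list reached from -0.33 for Synpo2 to 0.48 for Myl9.

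Signals known to act on lung smooth muscle were close to wild type in their median, with Foxf1a the farthest from it. Of 19 ligands, receptors and effectors, all kept, 0 were past 1.5-fold in either direction, with a median of -0.01. Shh had 16.6 FPKM in wild type against 15.9 FPKM in knockout, and its receptor Ptch1, the highest of the list, had 85.7 and 79.2 FPKM. The lowest difference was that of Foxf1a, the mesenchymal transcription factor gene beside Fendrr, with 36.6 and 24.8 FPKM and a log2 difference of -0.54. Foxf1a was thus just short of 1.5-fold. The paper reports no significant change of Foxf1a in Fendrr knockout lung.

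Markers of the vessel wall were somewhat lower than wild type in the same lungs, without passing 1.5-fold. Of all 13979 genes kept, 48.6% were below 0. Of 13 pericyte and mural markers kept of 15, 0 were past 1.5-fold in either direction and 9 were below 0, with a median of -0.26. Their sum was 227.0 FPKM in wild type against 188.1 FPKM in knockout, and the highest, Mcam, a cell adhesion gene, had 83.4 and 64.5 FPKM. Of 14 endothelial markers, 0 were past 1.5-fold in either direction and 11 were below 0, with a median of -0.26 and sums of 569.4 and 479.8 FPKM. Cdh5, the VE-cadherin gene of endothelial junctions, had 85.2 and 67.2 FPKM. These markers moved in the direction of Myh11, and their part in its difference was not tested.

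Markers of other tissues in or beside the lung were examined in the same way, beside the same shares of all genes (1.41% higher and 0.808% lower). Of 8 fibroblast markers, 1 was past 1.5-fold higher (Lum, a matrix proteoglycan gene, with 40.2 and 61.3 FPKM) and 0 lower, with a median of 0.21, and Col3a1 was the highest at 527.1 and 626.4 FPKM. Of 7 epithelial markers, 0 passed in either direction, with a median of 0.01. The 5 mesothelial markers, the 5 airway cartilage markers kept and the 2 oesophagus and stomach markers kept had 0 past 1.5-fold in either direction, with medians of 0.42, 0.17 and -0.23. The highest of each were Upk3b (31.2 and 42.1 FPKM), Hapln1 (12.43 and 13.48 FPKM) and Krt4 (2.16 and 1.90 FPKM). Of 5 erythroid markers, 1 was lower (Alas2, a haem synthesis gene, with 45.2 and 20.5 FPKM) and 0 higher, and Hbb-y, an embryonic globin gene and the highest, had 604.6 and 734.5 FPKM. Another 3 globin genes of the adult, which are not in that list and are named after their values were seen, were past 1.5-fold lower, with 1816 and 968.7 FPKM for Hba-a2, 2584 and 1409 FPKM for Beta-s and 1124 and 623.2 FPKM for Hbb-b1. These globin genes have near-identical copies, so the split of reads among them is uncertain. Of 3 meningeal markers kept, 1 was higher, which was again Lum, and the highest was Dcn, with 135.1 and 192.4 FPKM. The part of these cell types in the values of the smooth muscle genes was not tested.

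**Figure D3:**
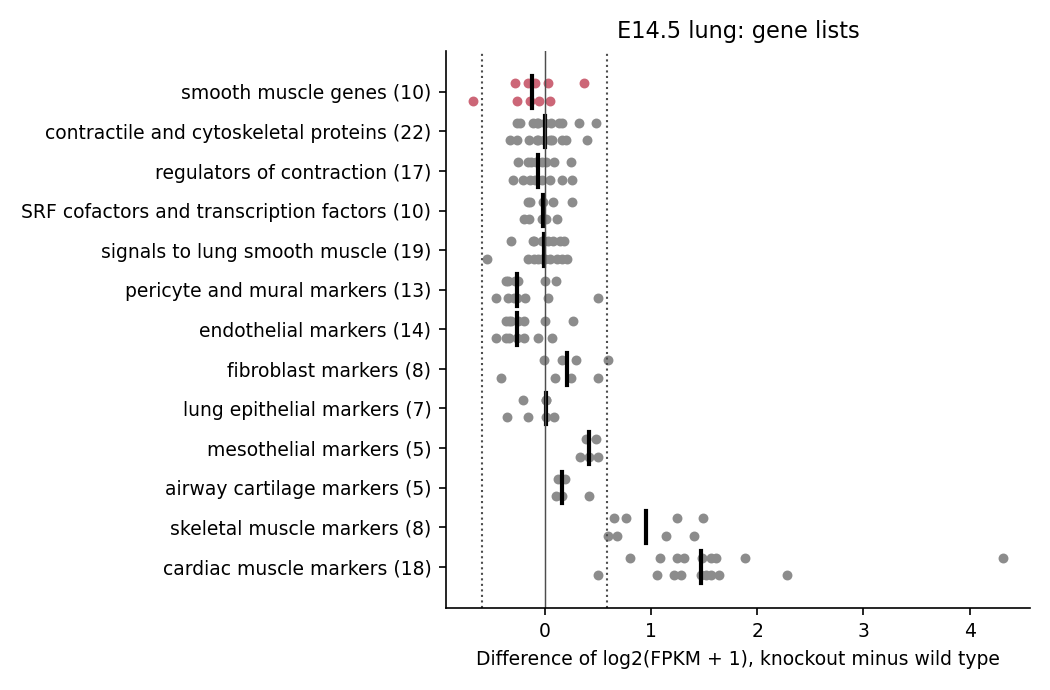
Difference of log2(FPKM + 1) between Fendrr knockout and wild type for the genes of 13 groups in E14.5 lung, with 1 point per gene kept, the number of genes in brackets, a bar at the median and dotted lines at 1.5-fold. The smooth muscle genes lie around 0 with a median of -0.11, whereas the cardiac muscle markers have a median of 1.47.

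In brain, where smooth muscle is a tissue of the vessel wall, the same genes were listed at lower levels than in lung. The tables were normalized separately, so these levels are given side by side only. Acta2, at 250.2 FPKM in wild-type lung, had 3.25 FPKM in wild-type E18.5 brain of the Peril strain, and between 0.373 and 2.55 FPKM in the 3 wild-type groups of the linc-Brn1b table. The sum of the 10 genes was 562.4 FPKM in wild-type lung and between 9.33 and 16.4 FPKM in the 4 wild-type brain groups. Smtn contributed most to the sum in wild-type brain at E13.5, with 9.61 FPKM.

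In E18.5 brain of the Peril strain, 4 of the 10 genes had a mean of at least 1 FPKM, and all 4 were lower in the group labelled knockout. Of all 14405 genes kept, 49.2% were below 0. Acta2 had 3.25 FPKM in wild type against 2.00 FPKM in the group labelled knockout, 61.6% of wild type. Tagln had 3.05 and 2.12 FPKM, Smtn 4.01 and 3.07 FPKM, and Mylk 3.19 and 2.75 FPKM. On the log2(FPKM + 1) scale these were differences of -0.50 for Acta2, -0.38 for Tagln, -0.30 for Smtn and -0.16 for Mylk, with a median of -0.34 against 0.00 for all genes. None of the 4 passed 1.5-fold on that scale, beside 0.666% of 14405 genes lower and 0.958% higher. The plain FPKM ratio of wild type over the group labelled knockout was 1.62-fold for Acta2. For Acta2 the share of all genes with a difference as low or lower was 1.06%.

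The other 6 genes were under 1 FPKM in this brain table. Actg2 had 0.483 FPKM in wild type against 0.191 FPKM in the group labelled knockout. Myh11 had 0.375 and 0.296 FPKM, Lmod1 0.216 and 0.166 FPKM, and Myocd 0.0360 and 0.0216 FPKM. Des (0.445 and 0.613 FPKM) and Cnn1 (0.112 and 0.124 FPKM) were slightly above wild type. At such levels few reads stand behind a value, and the depth is unknown.

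Vessel markers were lower in the same brains. Of all 14405 genes kept there, 49.2% were below 0, 0.666% were past 1.5-fold lower and 0.958% higher. All 14 endothelial markers were below 0, with 0 past 1.5-fold in either direction, a median of -0.22 and sums of 134.3 and 114.0 FPKM. Of 13 mural markers kept, 1 was past 1.5-fold lower and 0 higher, with a median of -0.13 and sums of 108.0 and 86.8 FPKM. The gene that passed was Rgs5, a G-protein regulator known from pericytes, with 26.6 FPKM in wild type against 14.97 FPKM in the group labelled knockout. The 7 fibroblast and 7 meningeal markers kept, from lists sharing Lum, had 0 past 1.5-fold in either direction, with medians of -0.33 and -0.27. Their part in the lower smooth muscle values was not tested.

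**Figure D4:**
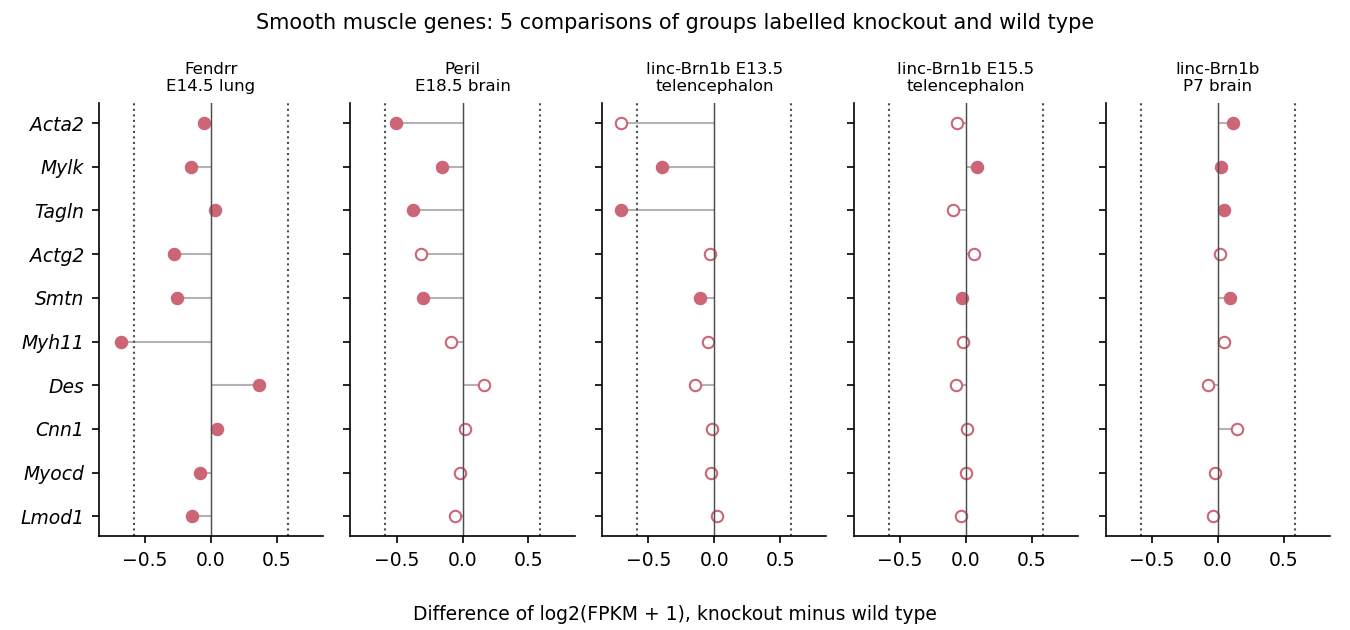
Difference of log2(FPKM + 1) of each smooth muscle gene in 5 comparisons, with filled points for genes with a mean of at least 1 FPKM over both groups, open points for the others, and dotted lines at 1.5-fold. Myh11 in E14.5 lung (-0.68) and Tagln in E13.5 telencephalon (-0.71) are the only filled points past 1.5-fold, and the points at E15.5 and P7 lie near 0.

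In E13.5 telencephalon of the linc-Brn1b strain, Acta2 and Tagln were lower in knockout. Tagln had 1.70 FPKM in wild type against 0.649 FPKM in knockout, 38.3% of wild type and a log2 difference of -0.71. Acta2 had 1.44 and 0.496 FPKM, a difference of -0.71 as well, but its mean was under 1 FPKM. Mylk had 2.81 and 1.90 FPKM (-0.39). Smtn had 9.61 and 8.86 FPKM, a difference of -0.11 that became 0.07 when each group was rescaled to a common sum (TPM). Of the 3 genes kept, 1 was past 1.5-fold lower and 0 higher, with a median of -0.39. The background is high here, with 5.52% of 13507 genes past 1.5-fold lower and 1.55% higher.

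The scale of the E13.5 groups differed, with deposited values summing to 434191 FPKM in wild type against 381511 FPKM in knockout. Rescaling to a common sum moved the median difference of all genes from 0.06 to 0.24. Tagln was at -0.86 on that scale, against -0.71 before. This is not a larger fall, since knockout values were scaled up more than wild-type ones. The rescaled values are larger, so the added 1 weighs less for low genes such as Tagln. The other 6 genes were at most 0.312 FPKM in either group. Lmod1 had 0.295 FPKM in wild type against 0.312 FPKM in knockout, above 0 by 0.02 but below it by 0.04 when centred on the median gene. Myocd had 0.0189 FPKM in wild type and a value next to 0 in knockout. For the genes under 1 FPKM these differences are descriptions of values near the lower end of the table.

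Markers of vessels, meninges and blood were lower in the same knockout telencephalon. Of all 13507 genes kept there, 41.1% were below 0, 5.52% were past 1.5-fold lower and 1.55% higher. All 14 endothelial markers were below 0, with 1 past 1.5-fold lower (Cldn5, a tight junction gene, with 16.5 and 8.19 FPKM), a median of -0.41 and sums of 100.4 and 68.7 FPKM. All 11 mural markers kept were below 0, with 1 past 1.5-fold lower (Vtn, with 12.9 and 5.78 FPKM), a median of -0.29 and sums of 78.9 and 59.9 FPKM. Of 7 fibroblast markers kept, 5 were lower, and of 5 meningeal markers kept, 3 were. Their medians were -0.72 and -0.88, with 0 higher in both lists, which share Lum. Of 4 erythroid markers kept, 3 were lower, with a sum of 1132 FPKM in wild type against 511.3 FPKM in knockout. Of 21 contractile and cytoskeletal genes kept, 6 were lower and 0 higher, among them Myl6 (303.7 and 127.3 FPKM) and Myl9 (9.47 and 5.53 FPKM). The part of these cell types in the lower Acta2 and Tagln values was not tested.

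At E15.5, Acta2, Tagln, Mylk and Smtn were close between genotypes. Acta2 had 0.373 FPKM in wild type against 0.309 FPKM in knockout, and Tagln 0.779 and 0.660 FPKM. Mylk (1.62 and 1.77 FPKM) and Smtn (5.91 and 5.78 FPKM) were the only genes kept, with a median of 0.03 that became -0.03 over all 10 genes without a filter. Neither was past 1.5-fold, beside 0.274% of 13521 genes lower and 0.200% higher. Among the genes under 1 FPKM, Actg2 was the farthest above wild type, at 0.0728 and 0.119 FPKM. The vessel markers were also near 0, with medians of -0.02 for 14 endothelial and -0.04 for 12 mural markers and 0 past 1.5-fold in either direction.

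At P7, all 4 genes kept were slightly above 0. Acta2 had 2.55 FPKM in wild type against 2.84 FPKM in knockout, Tagln 2.76 and 2.88 FPKM, Smtn 2.07 and 2.29 FPKM, and Mylk 2.61 and 2.68 FPKM. Their median was 0.07, and none passed 1.5-fold, beside 2.24% of 14175 genes lower and 2.08% higher. Cnn1 was low but had the highest ratio, with 0.135 and 0.254 FPKM. Des (0.665 and 0.578 FPKM) and Lmod1 (0.227 and 0.198 FPKM) were below wild type. Of 7 fibroblast markers kept, 4 were past 1.5-fold lower in the same brains, with a median of -0.60. Of 6 meningeal markers kept, from a list that shares Lum with the fibroblast list, all were below 0 and 2 past 1.5-fold lower. Of all genes kept at P7, 47.8% were below 0. Of 13 mural markers kept, 11 were below 0 and 0 past 1.5-fold, with a median of -0.19 and sums of 118.8 and 103.0 FPKM. The 14 endothelial markers had 0 past 1.5-fold and a median of -0.09.

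Between the wild-type groups of the linc-Brn1b table, most smooth muscle genes were lowest at E15.5 and highest at P7. Acta2 had 1.44 FPKM at E13.5, 0.373 FPKM at E15.5 and 2.55 FPKM at P7, a 6.84-fold ratio of P7 over E15.5. The same ratio was 6.29-fold for Myh11 (0.0699 and 0.439 FPKM), 4.36-fold for Cnn1, 3.54-fold for Tagln, 3.08-fold for Des and 1.61-fold for Mylk. Smtn went the other way, from 9.61 FPKM at E13.5 over 5.91 FPKM at E15.5 to 2.07 FPKM at P7, which was 35.0% of its E15.5 level on the authors' scale. Lmod1 had 0.295, 0.252 and 0.227 FPKM. The early groups are telencephalon and the P7 groups whole brain, so age and region cannot be told apart. Between wild-type E15.5 and P7, 23.5% of 14152 genes were past 1.5-fold higher and 27.2% lower on the log2(FPKM + 1) scale. The ratios above are plain FPKM ratios. On the log2(FPKM + 1) scale, Acta2 (1.37) and Tagln (1.08) were past 1.5-fold higher and Smtn (-1.17) was past it lower. Mylk (0.46), Des (0.45), Myh11 (0.43) and Cnn1 (0.14) did not pass, and Des, Myh11 and Cnn1 were under 1 FPKM at both ages.

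**Figure D5:**
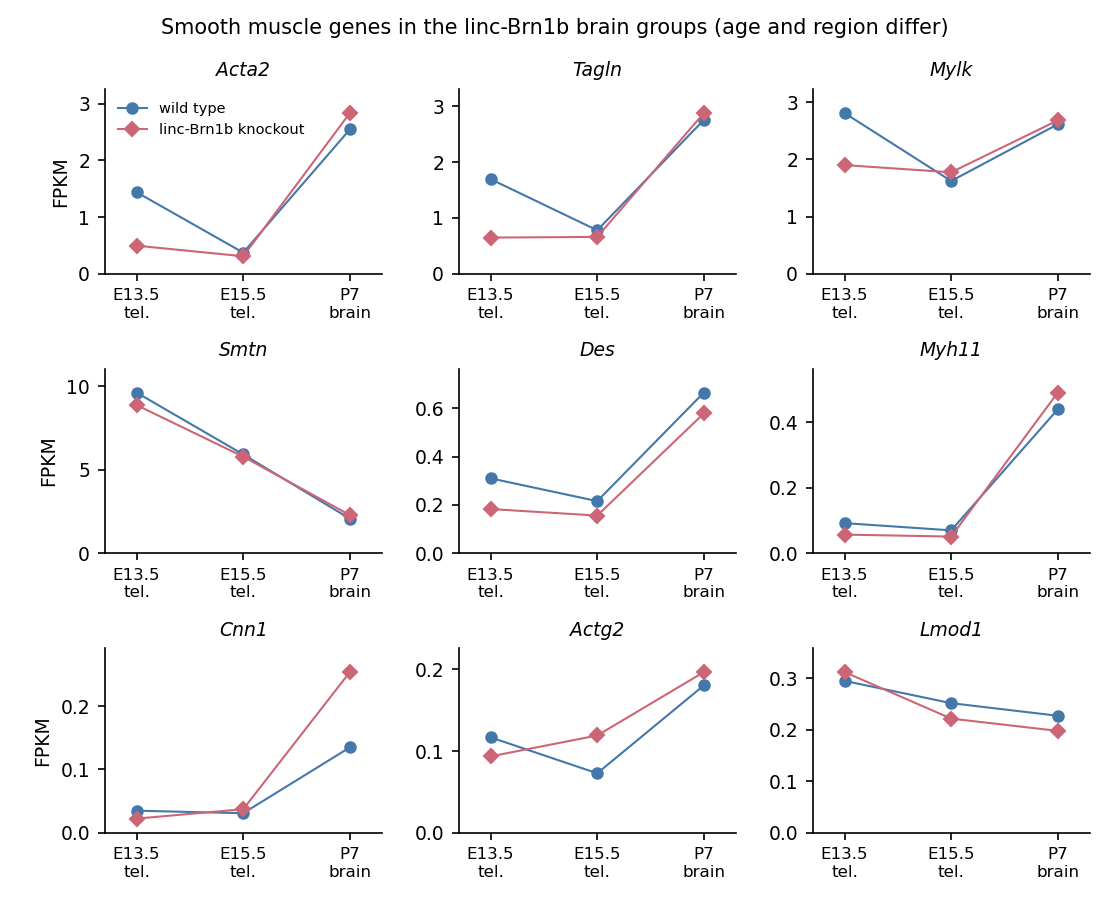
Level in FPKM of 9 smooth muscle genes in the 3 wild-type (circles) and 3 linc-Brn1b knockout groups (diamonds), each the 1 deposited value of a group, where P7 is whole brain and the earlier ages are telencephalon. Acta2 and Tagln are lower in knockout at E13.5 and meet wild type at E15.5, and Smtn declines in both genotypes. Myocd is left out because its values reach 0.

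The genes were also compared by their pattern over these 6 groups, as a description over groups that share 1 table. Pearson's r with Acta2 on the log2(FPKM + 1) scale was 0.99 for Tagln, 0.96 for Des, 0.95 for Myocd, 0.92 for Myh11, 0.90 for Mylk and Actg2 and 0.84 for Cnn1. It was -0.42 for Lmod1 and -0.71 for Smtn, so that these genes did not share the pattern of Acta2 in brain. Outside the set, the 5 genes nearest to the mean profile of Acta2, Mylk, Smtn and Tagln were Heyl, Eng, Rcsd1, Elovl1 and Hspa12b, at distances of 0.133 to 0.183 among 14094 genes. Heyl, a Notch target gene, had 2.48, 1.36 and 2.36 FPKM in wild type at E13.5, E15.5 and P7. Eng, the endoglin gene of endothelium, had 6.98, 4.51 and 6.504 FPKM.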

How the data were processed

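TruSeq RNA libraries of whole tissue were sequenced with paired ends. The authors used TopHat2 for alignment to mm9 and Cufflinks (version 2.0.2 in the submitters' processing notes) for assembly, and deposited Cuffdiff2 tables with 1 FPKM value per gene and group, scaled across libraries. These 3 tables have 0 columns of values per sample, so no error, interval, floor or test was computed. The deposited fold changes, test statistics, p-values and q-values of the authors' comparisons were not used. In the linc-Brn1b table, value 1 belongs to the group named second in a column, since this order gave 0 differing values over 15 comparisons and the reverse 691747. The same order was taken for the other tables.

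Differences are those of log2(FPKM + 1), knockout minus wild type, for genes with a mean of at least 1 FPKM over both groups. A gene was counted as higher or lower past 1.5-fold on that scale. The counting code was run on wild-type lung values with planted changes. That run checks the code only and says nothing about the spread between animals or about low genes. Python 3.11.15, pandas 2.3.3, numpy 2.4.6 and matplotlib 3.10.9 were used.

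The genes and all 17 lists were chosen with earlier results of these data known. Named genes are the 10 smooth muscle genes in every group. From each list, up to 4 genes in each direction past 1.5-fold in lung and the highest expressed one are named. The highest expressed gene of the contraction regulators is not reported here. The 5 genes nearest by Euclidean distance to the centred mean profile over the 6 linc-Brn1b groups are also named. Other genes were named after their values were seen. Alternatives were other pseudocounts, filters, scalings and folds.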

Additional observations from a re-analysis of the deposited data

How the results depend on the processing

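No paired analysis was possible because the tables hold 1 value per group, and for the same reason leaving out replicates and a replicate block were not run. Of the counts and medians of the 5 comparisons, 94 alternative values stayed near the reported one (medians within 0.1) and 15 moved. The E15.5 median, 0.027 over 2 genes, changed its sign to -0.027 over 10 genes without a filter and to -0.028 at a mean of at least 5 FPKM, where 1 gene was left. In lung, a fold of 2 left 0 genes lower, since Myh11 is between 1.5-fold and 2-fold. In the Peril brain, 1 gene, Acta2, was past 1.5-fold lower in the group labelled knockout under some settings. These were a pseudocount of 0.1 FPKM, no pseudocount and either common sum (TPM). Under each of them the added value weighs less or is absent, and the plain FPKM ratio of Acta2 was 1.62-fold to begin with. The median was -0.44 with 0.1 FPKM, -0.45 without a pseudocount and -0.12 without a filter. In E13.5 telencephalon, the count lower was 2 without a filter, 0 at a mean of at least 5 FPKM and 0 at a fold of 2, and the median was -0.54 with 0.1 FPKM, -0.56 without a pseudocount, -0.076 without a filter and -0.11 at 5 FPKM, where 1 gene was left. At a mean of at least 5 FPKM, 0 genes were left in the Peril and P7 brains. The settings without a pseudocount and over genes above 0 in both groups were chosen after seeing the data, as 28 lung genes, among them the mitochondrial Cox2, mt-Nd4 and Cytb, were listed at 0 in 1 group. Of the values of single genes, 186 stayed and 64 moved. The depth of the libraries is unknown and limits the genes under 1 FPKM most.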
